A study of Equus caballus with 37 samples.

Results

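NHSL2 (NHS-like protein 2, Ensembl identifier ENSECAG00000002472) was followed through the blood of Arabian horses over a season of flat racing. It was 1 of 26991 genes in the counts. It was chosen by its measured CPM in the 4 periods, because it rose over the season and also exceeded the untrained horses in the last period, so its levels and differences between periods are given as a description, without a test. The study drew jugular blood from horses in a training centre at 3 points and from untrained horses, to find transcripts that change during long-term training. The untrained group (T0) had 6 libraries, from 2 mares and 4 stallions, 5 of them from horses aged 2.5 years and 1 from a horse aged 3 years. The horses in training were 3 years old. T1, in March, followed a phase of slow canter and had 12 libraries, 5 of them from mares and 7 from stallions. T2, in May, followed intense gallop before racing began and had 11 libraries, from 4 mares and 7 stallions. T3, in October, closed the racing season and had 8 libraries, 4 from each sex. All horses were Arabian. The horses in training were sampled repeatedly, but no label names a horse, so libraries were treated as independent and any p-value measures the spread between libraries. Age and training differed together between T0 and T3 and cannot be told apart, and the same holds for time of year and training stage among T1, T2 and T3.

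NHSL2 belongs to a small family named after NHS, the gene mutated in Nance-Horan syndrome, an X-linked disorder of the lens and teeth. Proteins of this family bind the WAVE complex, which switches on the branching of actin filaments at the cell's leading edge, and they act on cell shape and migration. NHSL2 is the least studied member, and like NHS it lies on the X chromosome. Blood leukocytes depend on actin remodelling to crawl and to adhere, and whole blood holds many cell types that differ in their transcripts.

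The libraries held between 3810631 counts, in T1, and 14932603 counts, in T3. The TMM factor, which corrects a library's total for its composition, was 1.17 to 1.24 in T0, 0.949 to 1.21 in T2 and 1.05 to 1.25 in T3. In T1 it ran from 0.410 to 1.14, with 5 of 12 libraries at 0.696 or lower and the other 7 at 0.922 or higher. The T1 libraries with a low factor therefore stand apart in composition, and the main results that rest on T1 are also given without them. In the study's table of read statistics, the T1 samples of the same numbers have the lowest shares of uniquely mapped reads in that period and most share a sequencing pool. No label states that both numberings are the same, and the part of mapping or pool in the levels of NHSL2 was not tested. Of 52 marker genes of blood cell types, 0 could be paired with an identifier of the counts, so the cell makeup of the samples was not analysed from it. GZMH, which encodes a granzyme of cytotoxic lymphocytes, was outside that list, has an identifier printed by the study and is given after its values were seen. Its median was 33.5 CPM in T0 (16.5 to 66.9), 110.5 in T1 (64.1 to 374.5), 81.9 in T2 (40.1 to 173.8) and 48.7 in T3 (31.2 to 102.3). It was thus highest in T1, where NHSL2 was lowest, and the correlation of their log2 CPM over the 37 libraries was -0.61. With the period means removed the correlation was weaker, at -0.38. Other genes with a printed identifier, also picked after their values were seen, differed in sign over the 37 libraries. LY5 had 0.83 and P2RY14 0.67, while IL10RB had -0.59. From T2 to T3 GZMH fell by 0.81 on the log2 scale (SE 0.29, adjusted p = 0.0251 from edgeR), where 44.0% of all genes tested were called. In T0:T3 its log2 fold change was 0.57 (SE 0.30, adjusted p = 0.186 from edgeR), where 19.6% were called. As GZMH was picked after its values were seen, these p-values do not stand as tests, and 1 gene does not measure cell makeup. The part of cell makeup in the levels of NHSL2 was not tested. In whole blood, a change in the share of a cell type and a change in RNA per cell cannot be told apart.

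NHSL2 was lowest in T1, intermediate in T2 and T0, and highest in T3. Levels are in CPM, the counts per 1000000 counts of the TMM-scaled total. In T1 it ranged from 3.84 to 20.04 CPM around a median of 11.02, with a mean of 11.9 ± 4.88 (SD, n = 12). In T2 the lowest library held 6.07, the median 19.6 and the highest 29.9 CPM, with a mean of 19.3 ± 6.83 (SD, n = 11). The untrained horses formed the tightest group, between 19.3 and 29.9 CPM with a median of 22.6 and a mean of 24.4 ± 4.29 (SD, n = 6). In T3 the 8 libraries ran from 31.5 to 72.6 CPM around a median of 52.1, with a mean of 52.1 ± 14.5 (SD, n = 8). No T3 library reached down to the range of another period, while the ranges of T1, T2 and T0 ran into each other.

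**Figure D1:**
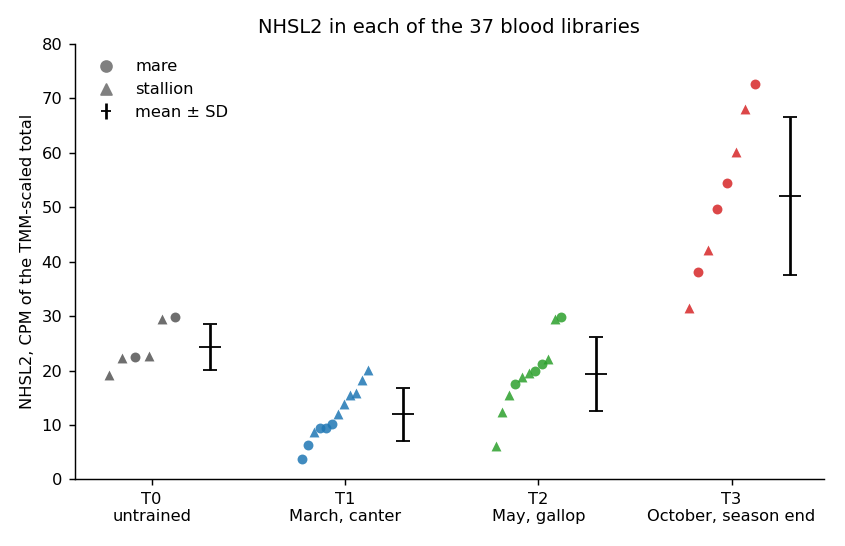
Level of NHSL2 in CPM of the TMM-scaled total (vertical axis) in each of the 37 libraries by period, with circles for mares, triangles for stallions and the mean ± SD at the right of each period. All 8 T3 libraries lie above 29.9 CPM, the highest value of T0 and of T2, and the lowest points are in T1.

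These levels rest on 267 to 378 reads per library in T0, 6 to 220 in T1, 66 to 386 in T2 and 364 to 1264 in T3. The library with 6 reads was T1 replicate 11, which also had the lowest total and the lowest TMM factor of the 37. The coefficient of variation between libraries was 17.6% in T0, where counting error alone would give 5.53%. It was 40.9% in T1 with 11.98% for counting, 35.4% in T2 with 6.94% and 27.8% in T3 with 3.66%. Counting was thus least precise in T1 and most precise in T3, and the spread includes that between horses.

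Between the periods in training, NHSL2 was 1.61-fold higher in T2 than in T1, a log2 fold change of 0.69 (SE 0.24). The T2 library was the higher one in 107 of the 132 pairs of a T1 with a T2 library, and 10 of 11 T2 libraries exceeded the T1 median. The difference was close in size to the pooled SD of 0.65 on the log2 scale, and the 2 groups overlapped. From T2 to T3 the gene was 2.66-fold higher, a log2 fold change of 1.41 (SE 0.22) against a pooled SD of 0.55. All 8 T3 libraries were above all 11 T2 libraries. Of the 12025 genes with enough reads, 3.77% had such a separation in that direction. Across the whole season, from T1 to T3, the level was 4.32-fold higher, a log2 fold change of 2.11 (SE 0.23), and again the groups did not overlap, as for 11.6% of genes. The later step, after May, was thus the larger of the 2 on the log2 scale, although the difference between these steps was not tested. It also covers a longer time, from May to October against March to May, so the sizes are not rates.

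Against the untrained horses, NHSL2 was 2.11-fold higher in T3, a log2 fold change of 1.08 (SE 0.17) with a pooled SD of 0.36. Every T3 library exceeded every T0 library, a separation in that direction found for 2.60% of genes. The gap itself was narrow, since the highest T0 library held 29.9 CPM and the lowest T3 library 31.5 CPM. That T0 library came from the 1 untrained horse aged 3 years, and T0 replicate 1, aged 2.5 years, held 29.4 CPM. In T1 the level was 0.491 times that of T0, a log2 fold change of -1.03 (SE 0.24), and 11 of 12 T1 libraries lay below the lowest T0 library. T2 and T0 did not separate beyond their spread, with a log2 fold change of -0.30 (SE 0.23) against a pooled SD of 0.53. The T2 library was higher in 14 of the 66 pairs of these 2 groups. The order of levels was therefore T1, T2, T0 and T3 from low to high, and T1 with T2 and T2 with T0 were the neighbours whose libraries overlapped.

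In the list of all genes tested, NHSL2 ranked 265 of 11696 by the height of its log2 fold change in T0:T3 and 249 of 11471 in T1:T3. It ranked 291 of 11599 in T2:T3 and 1025 of 11188 in T1:T2. In the comparisons of T0 with T1 and T2, 16.2% and 26.1% of the genes tested lay lower. These comparisons share libraries with each other, so the ranks are not independent.

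**Figure D2:**
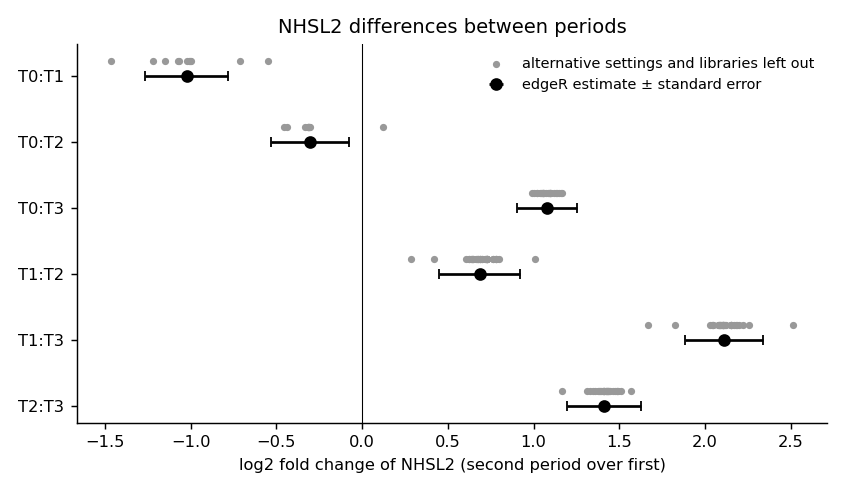
Log2 fold change of NHSL2 (horizontal axis, second period over first) in the 6 pairs of periods, as the edgeR estimate with its standard error (black) and as the values under alternative settings and with libraries left out (grey). The T0:T3 values stay between 0.99 and 1.17, while the pairs with T1 spread more widely and T0:T2 has 1 value above 0.

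The T1 libraries with a low TMM factor also held little NHSL2. In the 5 libraries with a factor under 0.75 the mean was 8.30 ± 2.55 CPM (SD, n = 5), and in the other 7 it was 14.5 ± 4.51 CPM (SD, n = 7). Without those 5 libraries, the log2 fold change was -0.71 (SE 0.20) in T0:T1, 0.42 (SE 0.25) in T1:T2 and 1.83 (SE 0.22) in T1:T3. With the log2 TMM factor as a covariate the values were -0.55, 0.29 and 1.67. The T1:T2 difference thus shrank by more than 1.5 times under both settings, and T0:T1 did so with the covariate. T0:T3, whose libraries have factors in the same range, was 1.13 with the covariate. With the 7 other T1 libraries, the T2 library was higher in 56 of 77 pairs and 8 of 11 T2 libraries were above the T1 median. In T0:T1, 6 of those 7 T1 libraries were below the lowest T0 library. The rank of NHSL2 was then 896 of 11456 in T1:T2 and 285 of 11591 in T1:T3. In T1:T2, edgeR called 0 of these 11456 genes, with 1444 at an unadjusted p below 0.05, against 3584 calls of 11188 with all 12 T1 libraries.

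Within each period, the log2 level of NHSL2 was set against the log2 TMM factor. The spread within a period was not a criterion of the choice. The T1 libraries with a low factor did, however, lower the T1 level that the choice used. How many other genes correlate with the factor was not analysed. In T1 the correlation was positive, with r = 0.72 (permutation p = 0.0123, adjusted p = 0.0492 over the 4 periods) and rho = 0.67 (permutation p = 0.0193, adjusted p = 0.0773) over 12 libraries. Leaving out the 2 libraries farthest from the median factor gave r = 0.53 (permutation p = 0.129, adjusted p = 0.13), so the call, over 10 libraries, did not hold without them. Without TMM scaling, r in T1 was 0.90 (permutation p = 0.0001, adjusted p = 0.0004). A level left unscaled moves with the factor by construction, so this value is no result about NHSL2. The correlation of the TMM-scaled level was r = 0.58 in T2 (11 libraries, permutation p = 0.0669, adjusted p = 0.134), with rho = 0.45 (permutation p = 0.162, adjusted p = 0.324). In T3 it was r = 0.34 and rho = 0.38 (8 libraries, exact permutation p = 0.411 and 0.360, adjusted p = 0.548 and 0.480). In T0 it was r = 0.11 and rho = 0.029 (6 libraries, exact permutation p = 0.814 and 1.0, adjusted p = 0.814 and 1.0). Leaving out the 2 farthest libraries gave r = 0.55 in T2 and 0.84 in T3 (permutation and exact permutation adjusted p = 0.13 for each). The T1 libraries that set this relation are from the same period as the lowest levels of NHSL2, and the part of library composition in those levels was not tested beyond these values.

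**Figure D3:**
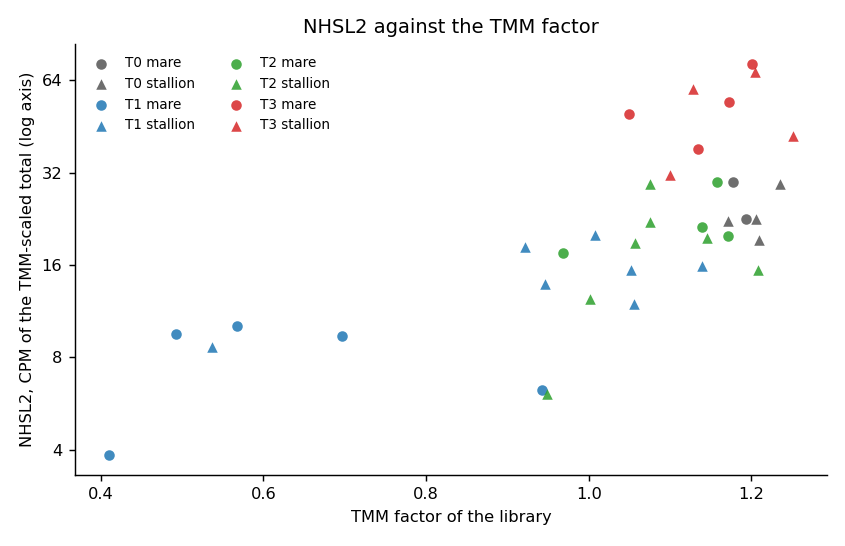
Level of NHSL2 in CPM (vertical log axis) against the TMM factor of the library (horizontal axis), coloured by period, with circles for mares and triangles for stallions. The 5 libraries with a factor of 0.696 or lower are all of T1, 4 of them from mares, and T0 and T3 share a range of factors while T3 lies higher.

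The pattern was also measured against the study's qPCR reference genes, SDHA, a subunit of succinate dehydrogenase, and GAPDH, an enzyme of glycolysis. Per 100 reads of SDHA the untrained horses had 12.3 ± 3.25 reads of NHSL2 (SD, n = 6). The value was 6.17 ± 2.18 (SD, n = 12) for T1, 9.99 ± 4.21 (SD, n = 11) for T2 and 25.9 ± 6.98 (SD, n = 8) for T3. The order of the periods was the same as in CPM. Per 1000 reads of GAPDH the means were 21.4, 7.70, 14.5 and 43.1 reads, again in that order of periods. T3 was then 2.11 times T0 against SDHA and 2.01 times against GAPDH, by the ratio of means. The clean separation of T3 from T0 did depend on the scale. Against SDHA 7 of the 8 T3 libraries were above the highest T0 library, against GAPDH 6 of 8, and in CPM of the library total without the TMM factor 7 of 8. T3 also met T2 on both gene-based scales, with 7 of 8 libraries above the highest T2 library, while all 8 stayed above T1 on every scale.

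Sex was not used to choose the gene, so an X-linked transcript could be tested for it. With period in the model, NHSL2 in stallions against mares had a log2 difference of 0.11 (SE 0.17, 95% interval from -0.24 to 0.45). The edgeR quasi-likelihood test gave p = 0.533 and an adjusted p = 0.717 over all genes. It was not among the 4 genes called for sex, which were 0.0333% of 12025. The interval allows a difference of up to 0.45 in favour of stallions, so a modest difference was not detectable with these libraries. Sex differs between horses, and libraries of a horse sampled repeatedly were counted here as independent. The SE and p-values for sex may therefore be too small and the intervals too narrow, so 0.45 is not a firm bound. A further 3 genes on X for which the study prints an identifier were not called either. TAF1, the largest subunit of the transcription factor TFIID, had 0.20 (SE 0.17, adjusted p = 0.487 from edgeR) and TBL1X, a part of the nuclear receptor corepressor complex, 0.20 (SE 0.15, adjusted p = 0.424). ZFX, a zinc finger transcription factor, had -0.40 (SE 0.15, 95% interval from -0.70 to -0.095, p = 0.0109 and adjusted p = 0.297 from edgeR). Its mean levels were 30.4 CPM in mares and 21.9 CPM in stallions, pooled over the periods without adjustment for them.

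The sex difference of NHSL2 was not of one sign over the periods. In T1 mares held 7.83 ± 2.68 CPM (SD, n = 5) and stallions 14.9 ± 3.84 CPM (SD, n = 7), and 6 of the 7 stallions were above the highest mare. In T2 mares were at 22.1 ± 5.39 CPM (SD, n = 4) and stallions at 17.7 ± 7.41 CPM (SD, n = 7). In T3 the values were 53.7 ± 14.3 and 50.5 ± 16.6 CPM (SD, n = 4 each), and in T0 26.2 ± 5.18 (SD, n = 2) and 23.4 ± 4.27 CPM (SD, n = 4). Mares were thus lower in T1 and had the higher mean in the other 3 periods, with overlapping ranges. The sex by period interaction, also fitted with all libraries as independent, had p = 0.0232 and an adjusted p = 0.191 in the edgeR fit, and so failed the correction. It was called for 0 of 12025 genes, or 0%, although 2554 had an unadjusted p below 0.05, and 0 were called in the alternatives with RLE factors, library totals, no filter or the title number as a term. In T1 the median TMM factor was 0.567 in mares and 1.01 in stallions, and 4 of the 5 mares' libraries were among the 5 with a low factor. Sex and library composition in T1 cannot be told apart by these 12 libraries.

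Among 38 proteins chosen as known partners of actin remodelling and adhesion, 1 could be paired with an identifier of the counts. This was LIMS1 (ENSECAG00000017490), the adaptor PINCH, which with integrin-linked kinase and parvin ties integrins to the actin cytoskeleton. Pairing used only identifiers that the study prints, mostly for genes it lists as changed in these same libraries. The tests of LIMS1 are therefore not independent of those lists and do not speak for the other partners. The untrained horses held 32.1 ± 2.92 CPM of LIMS1 (SD, n = 6), and T1 held 13.9 ± 4.52 CPM (SD, n = 12). T2 held 19.3 ± 6.24 CPM (SD, n = 11) and T3 33.7 ± 5.67 CPM (SD, n = 8). Like NHSL2 it had its lowest mean in T1, while its T3 libraries, from 22.8 to 40.4 CPM, covered the range of the untrained horses, 28.9 to 35.7 CPM.

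LIMS1 rose in T2:T3 with a log2 fold change of 0.78 (SE 0.18, adjusted p = 0.00158 from edgeR), a comparison in which 44.0% of all genes tested were called. NHSL2 had 1.41 there. LIMS1 was not called in T1:T2, where its log2 fold change was 0.48 (SE 0.21, adjusted p = 0.0716 from edgeR) and 32.0% of genes were called. Without the 5 T1 libraries of low TMM factor it was 0.20 (SE 0.20, adjusted p = 0.647 from edgeR). In T0:T3 it had 0.06 (SE 0.11, adjusted p = 0.73 from edgeR) and was not called, with 19.6% of genes called. NHSL2 had 1.08 in that comparison, and the difference between these 2 genes was not tested.

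Genes that rose over the season differed in where the untrained horses lay between T1 and T3. On a scale of mean log2 CPM where T1 is 0% and T3 is 100%, T0 lay at 51.6% for NHSL2. Of the 74 genes for which the study prints an Ensembl identifier, 40 were higher in T3 than in T1 by the call rule of an adjusted p below 0.05 and a fold of at least 1.3. Over all genes, 3777 of 11471 tested met that rule in that direction. Most of the 74 come from the study's lists of changed genes in these same libraries, so the 40 are no independent result. NHSL2 is counted among them as a description, not as a test. NHSL2 had the lowest place of T0 among these 40. Since the gene was chosen for exceeding T0 in T3, this position partly follows from the choice. The next was ZNF618, a zinc finger protein, at 59.2%, then NCOA2, a coactivator of nuclear receptors, at 70.2% and NFAT5, the transcription factor of the response to osmotic stress, at 77.2%. LIMS1 was at 95.7%, and AGPAT5, an acyltransferase of phospholipid synthesis, at 121%, above its T3 level. Over all 3777 genes that were higher in T3 than in T1 the median place was 90.7%, and 513 of them (13.6%) were at or below NHSL2. NHSL2 was therefore at the low end without standing alone. Without the 5 T1 libraries of low TMM factor, T0 lay at 42.9% for NHSL2, the lowest of 41 genes with a printed identifier that were then higher in T3. The median over 3251 such genes was 84.6%, and 533 (16.4%) were at or below NHSL2.

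**Figure D4:**
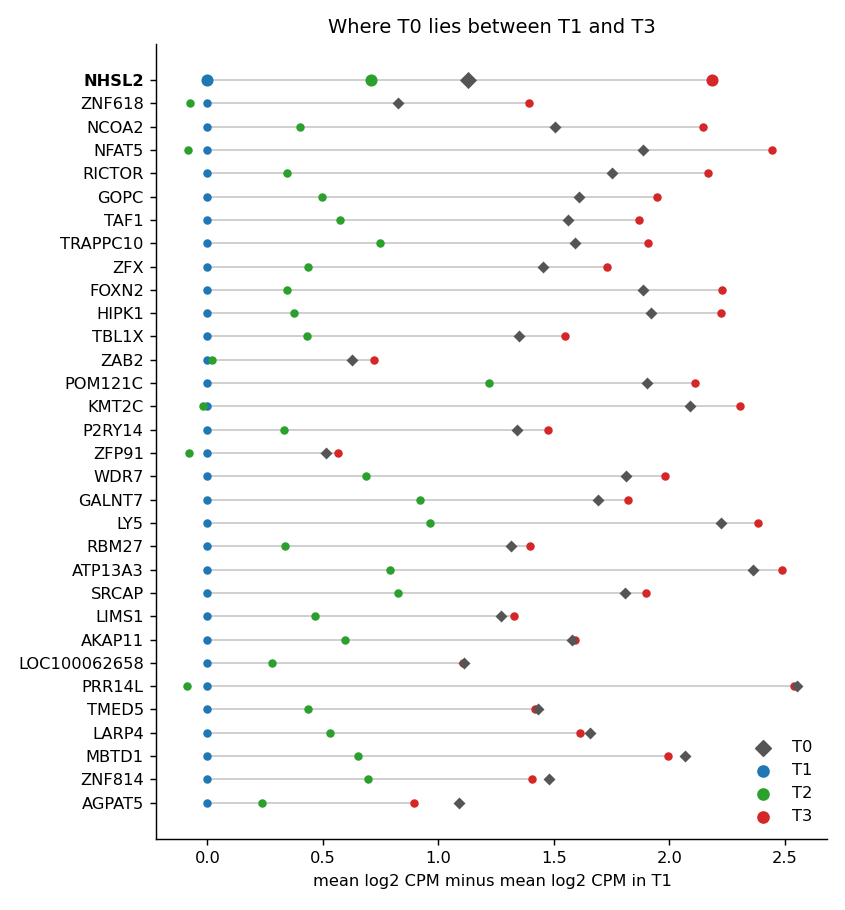
Mean log2 CPM of each period minus that of T1 (horizontal axis) for the 32 of the 40 rising genes that have a symbol, ordered from the lowest to the highest place of T0 (diamonds) between T1 and T3 (circles). For NHSL2, at the top, T0 lies at 51.6% of the way from T1 to T3, and for AGPAT5, at the bottom, T0 lies beyond T3.

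Among the genes with a printed identifier, the next above NHSL2 by log2 fold change in T0:T3 was ENSECAG00000009368 at 3.56. That value was carried by few libraries. The median of the gene was 17.7 CPM in T0 (10.5 to 67.1) and 23.3 CPM in T3 (10.95 to 1544), and 1 library held 57.7% of the summed CPM of T3. Its log2 fold change in T1:T3 was -1.96, a value also carried by few libraries. In T1 its median was 38.9 CPM, its mean 1315 CPM and its highest library 5794 CPM. The next below was LOC100052638 at 0.83, and it had -1.26 in T1:T3. NFAT5 followed at 0.72 and NCOA2 at 0.66, and these 2 had log2 fold changes of 2.62 and 2.11 in T1:T3, against 2.11 for NHSL2. In T0:T1, however, NFAT5 had -1.89 and NCOA2 -1.44, both further below the untrained horses than the -1.03 of NHSL2.

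The genes most like NHSL2 were sought by the Pearson correlation of log2 CPM over the 37 libraries, among the 9328 genes whose mean count was 50 or more. The closest were ENSECAG00000016439 with r = 0.97 and ENSECAG00000024047 with r = 0.96, neither of which could be paired with a symbol. The first had mean levels of 143.8, 73.0, 106.4 and 219 CPM in T0, T1, T2 and T3, and the second 119, 53.8, 85.1 and 248 CPM. Both thus followed the order T1, T2, T0, T3 of NHSL2. The fifth gene still had r = 0.95, the median over all 9328 genes was 0.12, and 1.44% had an r over 0.9. These values describe libraries that share a period and a scaling factor.

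With the means of the periods removed, the likeness persisted at a lower level. The T1 libraries of low TMM factor remain in these deviations, and likeness without them was not analysed. The part of library composition in these correlations was not tested. ENSECAG00000008917 had the highest correlation of deviations, r = 0.91, and ENSECAG00000016439 followed with r = 0.90, so that 1 of the 2 closest genes was the same by both measures. The median was 0.14, 26.6% of genes were over 0.5 and 0.0214% over 0.9. Of the genes with a symbol, chosen after their values were seen, NCOA2 had r = 0.94 over the 37 libraries and 0.86 within periods, and TBL1X had 0.91 and 0.84. The corresponding values were 0.81 and 0.59 for LIMS1, 0.21 and 0.12 for SDHA, and -0.50 and -0.23 for GAPDH.

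On the X chromosome of the RefSeq annotation of assembly TB-T2T, RTL5, a gene derived from a retrotransposon, lies within the span of NHSL2. PIN4, a peptidyl-prolyl isomerase, and ERCC6L, a helicase of mitosis, are the next protein-coding genes on one side, and on the other are 3 uncharacterized genes. None of these 6 could be paired with an identifier of the counts, so whether the neighbours moved with NHSL2 was not analysed here. The library kit does not mark strand, so reads from an exon that NHSL2 shares with an overlapping gene could not be told apart by strand, and the counts of NHSL2 are uncertain to that extent.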

How the data were processed

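The authors trimmed single-end reads with Flexbar 2.5, aligned them with STAR 2.4.2a to EquCab2 (Ensembl release 83) and used RSEM 1.2.22 to obtain expected counts. The deposited expected counts were whole numbers without normalization and were used as they stand. The table of 26991 genes was used, and the row of NHSL2 was identical in the authors' 3 smaller tables. How RSEM shares ambiguous reads can affect genes with overlapping or similar copies.

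Counts were analysed with edgeR 4.0.16 in R 4.3.3. Low genes were removed with filterByExpr, totals were scaled with TMM factors, and each pair of periods was fitted alone and tested with the quasi-likelihood F-test, adjusted after Benjamini and Hochberg. Standard errors were taken as the absolute log2 fold change over the root of the F statistic. CPM on the log2 scale used a prior count of 2. Sex was tested over all 37 libraries, treated as independent, with period as a term, and the interaction in the same data. Correlations used exact permutations for 8 libraries or fewer and 1e+05 resamples otherwise, two-sided. The pairwise test, in T2:T3 and T0:T3, and the sex test were checked on simulated counts of independent libraries with few changed genes. Pairs with T1, the interaction and the correlations were not checked in this way.

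NHSL2, the lists and the named genes were chosen with earlier results of these data known. Named by rule were NHSL2, members of the partner list with an identifier, SDHA, GAPDH, the 5 genes most correlated with NHSL2 by each measure (at most 2 identifiers each where no symbol could be paired), the neighbouring genes, and genes next to NHSL2 among the 74 identifiers printed by the study, 57 with a symbol. Symbols came from the study's lists and chromosome X from RefSeq. Alternatives were DESeq2 1.42.0, RLE factors, totals, reference genes, no filter, all libraries in 1 fit, sex, title number or TMM factor as a term, genes over 1% of counts left out, and each library left out. The fits without the T1 libraries of low TMM factor were added after seeing the data. Sequences of NHSL2 were not used here.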

Additional observations from a re-analysis of the deposited data

How the results depend on the processing

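Of 63 log2 fold changes of NHSL2 under other settings, 62 kept their direction and moved by less than the pooled SD between libraries. The exception was T0:T2, which turned to 0.12 with the log2 TMM factor as a covariate. This rule was lenient, since the pooled SD was 0.65 in T1:T2 and 0.53 in T0:T2, against estimates of 0.69 and -0.30. T1:T2 fell to 0.29 with that covariate and still passed. All 76 fits of T0:T3, T1:T2, T1:T3 and T2:T3 with a library left out also passed this rule, with ranges of 1.002 to 1.17, 0.61 to 0.80, 2.03 to 2.20 and 1.31 to 1.49. The sex difference turned to -0.20 without T1 and to -0.0046 with the title number as a replicate block, and was 0.048 to 0.18 with a library left out. It was not called under any of these settings. LIMS1 was called in T1:T2 in the fit of all 37 libraries (1 of 1 paired partner, adjusted p = 0.0311 from edgeR) and with the replicate block (1 of 1, adjusted p = 0.0254 from edgeR), where 4904 and 4545 genes were called against 3584. The correlation with the TMM factor in T1 was 0.53 without the 2 farthest libraries. Without TMM scaling it was 0.90 in T1 and 0.69 in T2 (permutation adjusted p = 0.0004 and 0.0385). A level left unscaled moves with the factor by construction, so these values are no result about NHSL2. For T0 the correlation was not run without 2 libraries, since 4 would remain.

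Counts of genes called moved by over 1.5 times in T1:T2, from 3584 to 1754 with library totals, and to 0 with the TMM covariate or without the T1 libraries of low factor. With that covariate they moved from 5107 to 2965 in T2:T3, from 7452 to 4804 in T1:T3, from 6708 to 2795 in T0:T1 and from 3900 to 0 in T0:T2, where the fit of all libraries called 2113. In T0:T3 they moved from 2295 to 1447 with the replicate block and 717 in the fit of all libraries, and for sex from 4 to 14 with DESeq2, 9 without the filter and 1 with the block. The title numbers did not pair the libraries: correlations between libraries of the same number ran from -0.42 to 0.60, and in T1:T2 the sexes agreed in 6 of 11. Of those 11, 3 correlated best with their own number. The 6 reads in the shallowest T1 library limit its value.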
